A study of Mus musculus with 9 samples.

Results

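The translation initiation factor genes of sorted AML1-ETO9a leukaemia cells are described here. They were taken as all rows of the deposited count table whose symbol begins with Eif and a digit, leaving out the 4 kinase genes Eif2ak1 to Eif2ak4 and pseudogene names, which gave 51 of 24391 gene rows. The rule used symbols and no measured value. The cells were bone marrow cells of C57BL/6 mice aged 6 to 8 weeks with leukaemia driven by AML1-ETO9a, a truncated product of the fusion of AML1 with ETO, so every group was leukaemic marrow. CD43, a surface sialoglycoprotein of leukocytes, and c-Kit, a receptor tyrosine kinase of blood progenitors, were used to sort them into 3 populations with 3 RNA-seq libraries each, namely CD43++ckit+ cells, CD43+ckit- cells and CD43-ckit- cells. Whether each library came from its own mouse is not stated, and p-values therefore measure a spread between libraries that may be technical. Marrow without leukaemia was not analysed here.

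Initiation factors bring the ribosome to the start codon. eIF2 carries the initiator tRNA and eIF2B recharges eIF2 with GTP, while eIF1, eIF1A and eIF5 control the choice of start codon. eIF4E binds the mRNA cap, and with the scaffold eIF4G and the helicase eIF4A it recruits the small ribosomal subunit through eIF3. The best known brakes are the 4E-binding proteins, which sequester eIF4E, and phosphorylation of the alpha subunit of eIF2, which blocks eIF2B. In red cell precursors that phosphorylation is carried out mainly by the haem-regulated kinase HRI, encoded by Eif2ak1.

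Library totals lay between 17966197 and 31781746 counts. Levels are given as CPM, a gene's count scaled to a library of fixed size, with TMM, a method that corrects for libraries in which a few genes take many reads. TMM factors were 1.26 to 1.41 in CD43++ckit+ cells, 1.05 to 1.14 in CD43+ckit- cells and 0.589 to 0.776 in CD43-ckit- cells. Fold changes are log2 values of the first-named population minus the second, with a standard error. A gene was called at an adjusted p under 0.05 in edgeR's quasi-likelihood test with Benjamini-Hochberg adjustment over 12573 genes. Kit averaged 164.2 ± 15.9 CPM in CD43++ckit+ cells, 15.8 ± 7.01 CPM in CD43+ckit- cells and 34.1 ± 13.2 CPM in CD43-ckit- cells (SD, n = 3 each), so the label order ckit+ over ckit- held. Spn, the gene of CD43, averaged 502 ± 63.7 CPM, 194 ± 50.3 CPM and 142 ± 61.2 CPM in the same populations. It was not called between CD43+ckit- cells and CD43-ckit- cells (0.45 ± 0.33, adjusted p = 0.269), so the CD43 gene did not separate these labels in that fit, while in a fit of these 2 populations with the library number as a block it was called (0.47, adjusted p = 0.0168). Of 10 erythroid markers, 10 were called lower in CD43++ckit+ cells than in CD43+ckit- cells and than in CD43-ckit- cells, beside 20.1% and 27.7% of all tested genes. In CD43+ckit- cells 4 of the 10 were called lower than in CD43-ckit- cells, beside 20.9% of all tested genes, and 6 were not called. The summed level of 10 erythroid markers was 1997 to 2869 CPM in CD43++ckit+ libraries, 15766 to 18527 CPM in CD43+ckit- libraries and 37088 to 57977 CPM in CD43-ckit- libraries. The summed level of 10 neutrophil markers overlapped between CD43++ckit+ cells and each of the others, at 95.5 to 6057 CPM in CD43++ckit+ cells, 487 to 3707 CPM in CD43+ckit- cells and 3840 to 17222 CPM in CD43-ckit- cells. All of these markers passed the low-count filter, and their part in the results was not tested. In bulk samples, fewer cells of a type and less RNA per cell cannot be told apart.

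CD43++ckit+ cells had higher levels of Eif1a, Eif4a1, Eif4e, Eif4b and Eif2s3x than both other populations. Eif5 was 11.8-fold and Eif1 3.92-fold lower in CD43++ckit+ cells than in CD43-ckit- cells. Of the 51 genes, 47 passed the low-count filter. The other 4 were Eif2s3y, Eif3j1 and Eif3j2, listed at 0 in all 9 libraries, and Eif4e1b, a germ cell form of eIF4E with 2 counts in 1 CD43-ckit- library and 0 elsewhere. Eif2s3y is the Y-linked copy of the eIF2 gamma subunit, and 3 other Y-linked genes, Ddx3y, Uty and Kdm5d, summed to 1 count over all libraries. Eif3j1 and Eif3j2 are copies for the j subunit of eIF3, and reads shared by both could have been lost or split in counting. Only part of Eif3j1 is shared in this way. Of the 50-base words of its transcripts, 49.1% occur in no other annotated gene, and for Eif3j2 this share is 8.15%. Why both genes were listed at 0 was not tested.

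**Figure D1:**
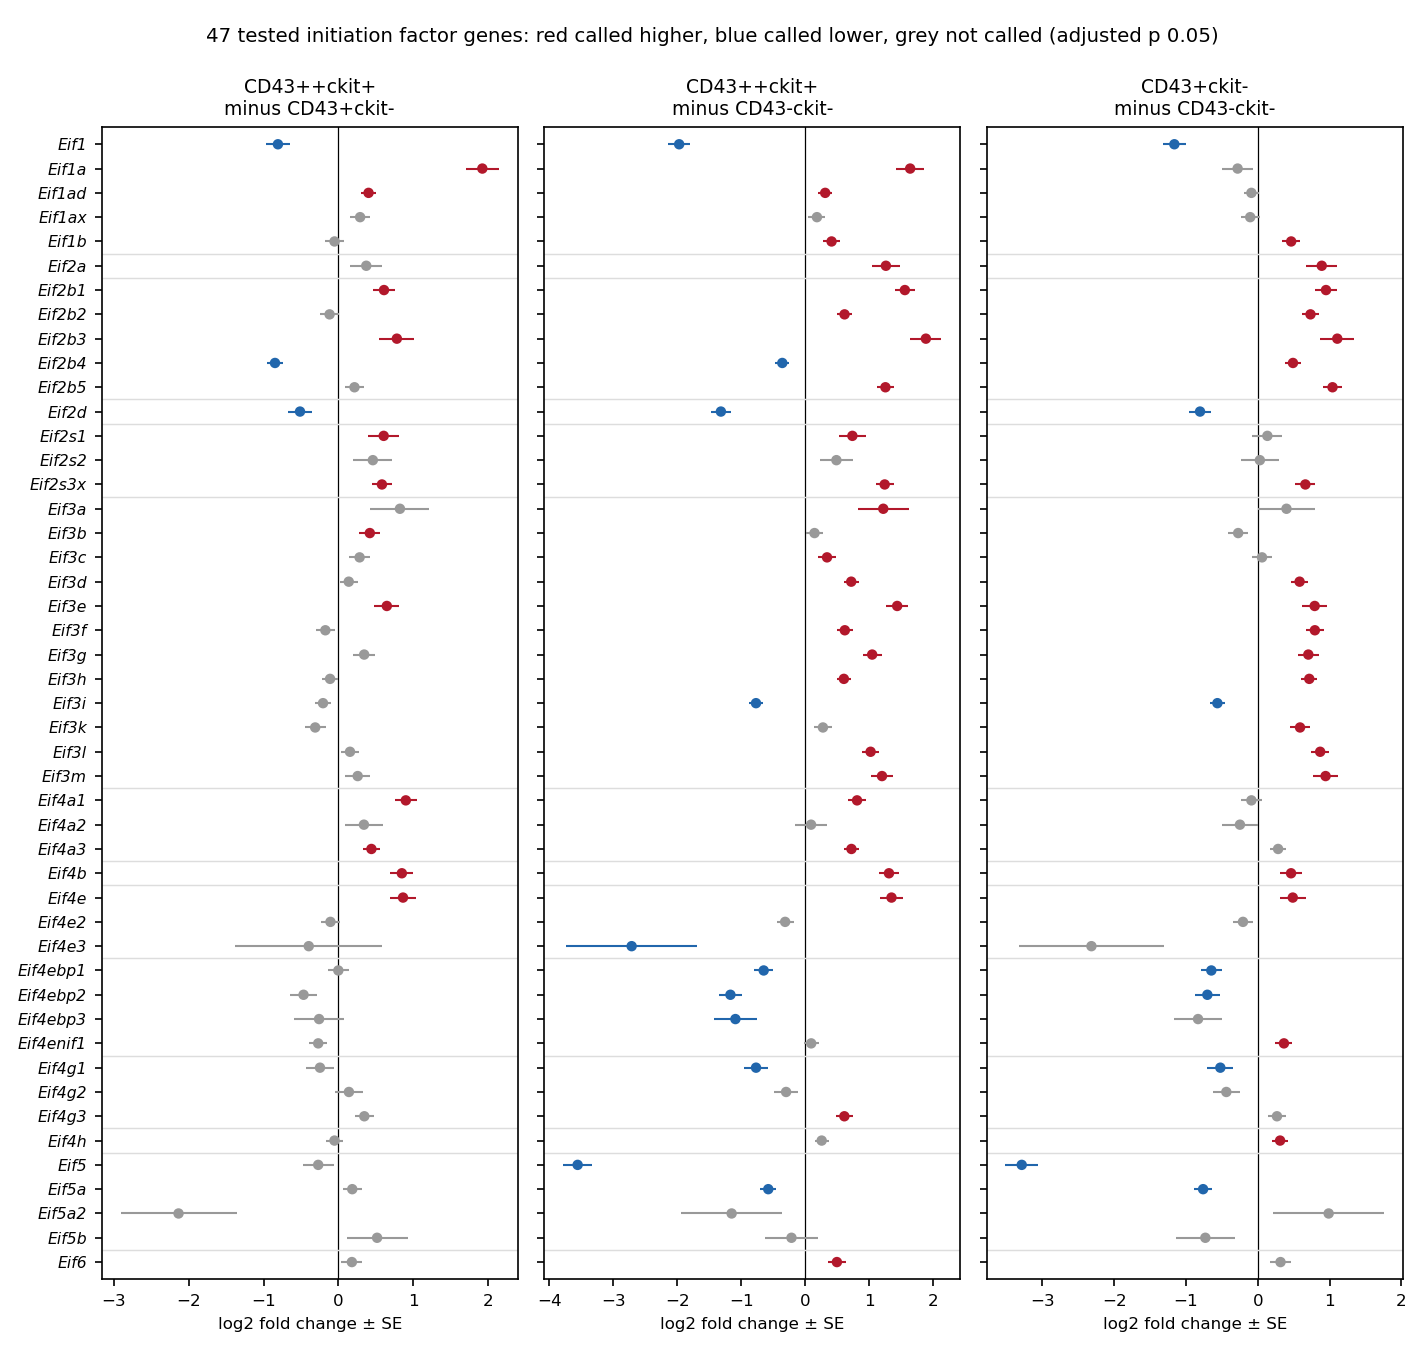
Log2 fold change with its standard error (horizontal axis) for each of the 47 tested initiation factor genes (rows, grouped by factor) in the 3 comparisons (panels). Red points were called higher and blue points lower in the first-named population, and grey points were not called. Eif5 stands at -3.56 and -3.29 in the panels against CD43-ckit- cells, and Eif1a at 1.92 in the panel of CD43++ckit+ minus CD43+ckit-.

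Against CD43+ckit- cells, CD43++ckit+ libraries were higher for 12 of the 47 genes and lower for 3. These are 25.5% and 6.38% of the initiation factor genes, beside 19.7% called higher and 20.1% called lower among all tested genes (15 called, against a background of 39.8%). Eif1a was the one gene at least 2-fold higher and none was at least 2-fold lower, beside 11.2% and 10% of all genes. In 16 genes every CD43++ckit+ library lay above every CD43+ckit- library and in 10 below, beside 27% and 28.5% of all genes. Their median log2 fold change was 0.18, and that of all tested genes was 0.01. Single libraries move this count: higher calls numbered 5 without library 1 of CD43++ckit+ cells, 6 without library 2 of CD43++ckit+ cells and 7 without library 3 of CD43+ckit- cells, and lower calls numbered 5 without library 1 of CD43-ckit- cells. Over all tested genes the same fits called 1607, 1671 and 1855 higher, and the last called 2907 lower. The fit of all libraries called 2472 higher and 2533 lower. Scaled by library totals the split was 23 higher and 2 lower, beside 3511 and 1733 of all 12573 tested genes. With DESeq2 size factors, computed by edgeR's RLE method, it was 11 higher and 5 lower, beside 2288 and 2796.

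Against CD43-ckit- cells, CD43++ckit+ libraries were higher for 25 of the 47 genes and lower for 11. These are 53.2% and 23.4% of the initiation factor genes, beside 39.7% and 27.7% of all tested genes (36 called, against a background of 67.4%). The median of the initiation factor genes was 0.41 and that of all tested genes 0.19. With library totals 35 were higher and 3 lower, beside 7722 and 1669 of all 12573 tested genes. With DESeq2 size factors 21 were higher and 13 lower, beside 4122 and 4208. With TMM the counts over all tested genes were 4989 and 3482. A change of at least 2-fold was called in 13 genes that were higher in CD43++ckit+ cells and in 6 that were lower, beside 25.8% and 21.5% of all genes. The libraries did not overlap in 24 genes that were higher and 12 that were lower, beside 42.7% and 30.5% of all genes. A joint test over the 3 populations called 36 of the 47, beside 74.8% of all genes.

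CD43+ckit- libraries were higher than CD43-ckit- cells for 20 of the 47 genes and lower for 8, or 42.6% and 17.0%, beside 31% and 20.9% of all tested genes (28 called, against a background of 51.9%). At least 2-fold changes were called in 2 higher and 2 lower genes, beside 11.8% and 15%, and the libraries did not overlap in 22 higher and 12 lower genes, beside 36.1% and 28.2%. The medians were 0.28 and 0.13. With library totals the split was 31 higher and 2 lower, beside 6865 and 1191 of all 12573 tested genes. With DESeq2 size factors it was 15 higher and 13 lower, beside 2798 and 3312 (with TMM 3893 and 2630). In a fit of these 2 populations with the library number as a block, 18 were higher and 12 lower, beside 17 and 10 in the same fit without the block. Of 12043 genes tested in that fit, 4149 were higher and 3949 lower with the block, and 3279 and 3236 without it. In the fit of all 9 libraries the block gave 18 higher and 9 lower, beside 3725 and 2851 of all tested genes. The 3 comparisons share libraries and do not count as separate evidence.

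Library totals raised the median log2 fold change of all tested genes by 0.27 for CD43++ckit+ cells with CD43+ckit- cells, by 0.91 for CD43++ckit+ cells with CD43-ckit- cells and by 0.65 for CD43+ckit- cells with CD43-ckit- cells. The initiation factor genes moved with it. In the same order of comparisons their median stood above that of all genes by 0.17, 0.22 and 0.15 with TMM, and by 0.17, 0.22 and 0.14 with library totals. As a share of raw counts, the 51 genes together took 1.30% to 1.42% in CD43++ckit+ cells, 1.01% to 1.07% in CD43+ckit- cells and 0.867% to 0.927% in CD43-ckit- cells. On the TMM scale the same sums were 9197 to 11266 CPM in CD43++ckit+ cells, 9323 to 9576 CPM in CD43+ckit- cells and 11947 to 14721 CPM in CD43-ckit- cells. The order of the populations by this sum therefore turns with the scaling.

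**Figure D2:**
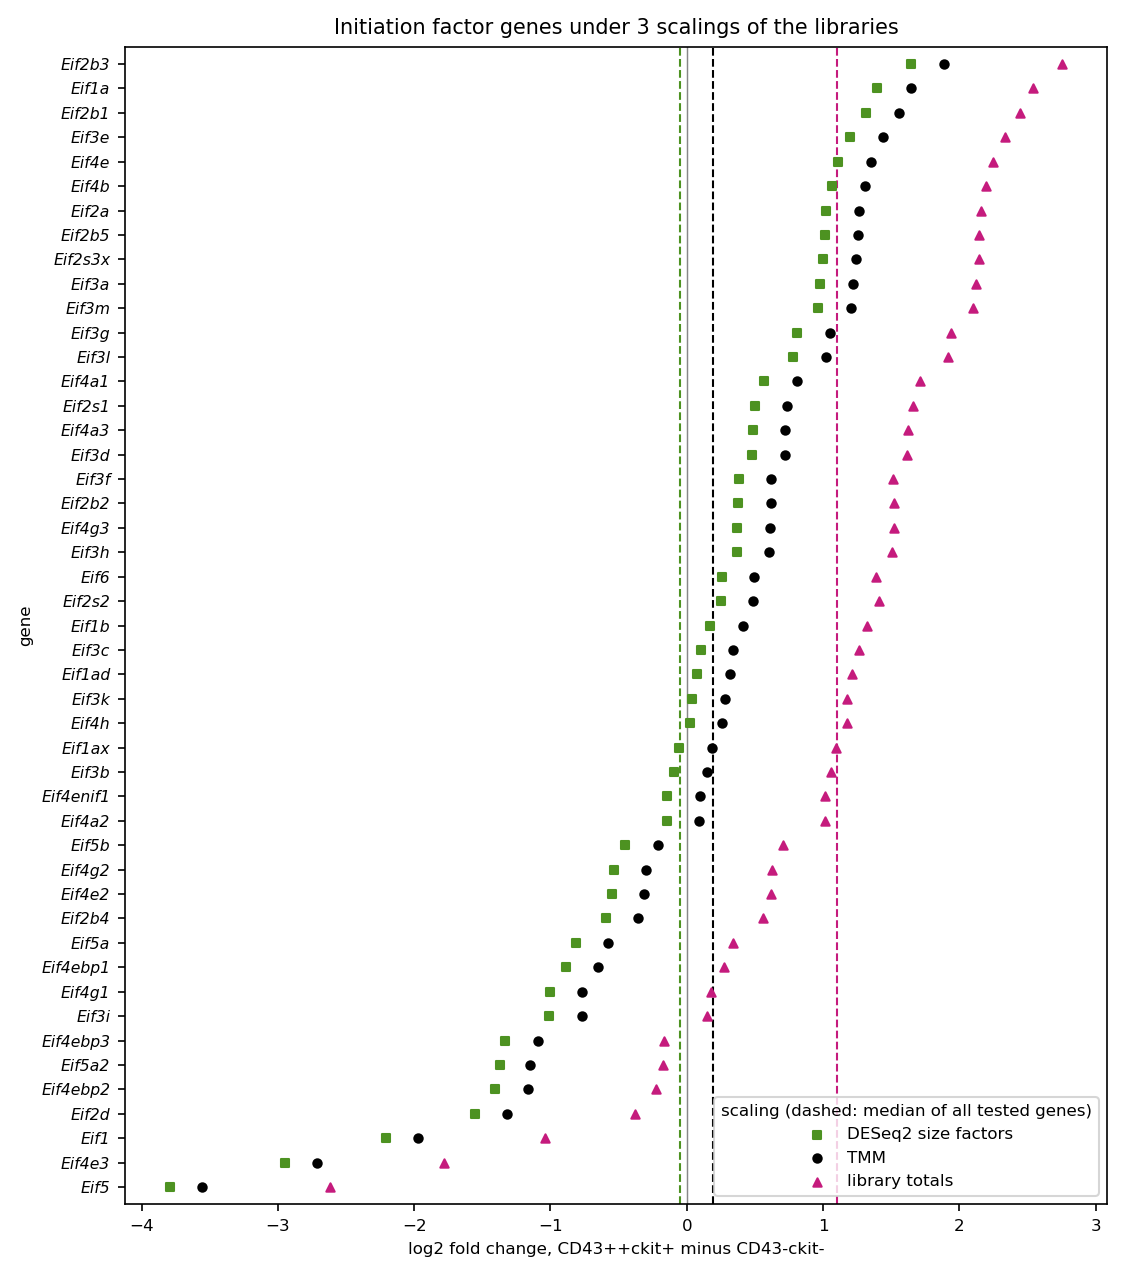
Log2 fold change of CD43++ckit+ minus CD43-ckit- (horizontal axis) for the 47 tested genes (rows) under DESeq2 size factors, TMM and library totals, with the median of all tested genes under each as a dashed line. Under library totals the genes and the median lie farther to the right, and Eif5, Eif1 and Eif2d stand on the left with a call under all 3 scalings.

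The genes for start codon choice included the largest called changes in both directions among the 47, Eif5 and Eif1a. Eif5 encodes the protein that triggers GTP hydrolysis by eIF2 at the start codon. It had 223, 206 and 159.6 CPM in CD43++ckit+ cells, 259.9, 202 and 248 CPM in CD43+ckit- cells, and 2946, 2133 and 1844 CPM in CD43-ckit- cells. Every CD43-ckit- library lay far above all others, while CD43++ckit+ cells and CD43+ckit- cells overlapped. The log2 fold change was -3.56 ± 0.23 in CD43++ckit+ cells against CD43-ckit- cells (adjusted p = 3.82e-06) and -3.29 ± 0.23 in CD43+ckit- cells against CD43-ckit- cells (adjusted p = 3.12e-05), and it was -0.27 ± 0.21 in CD43++ckit+ cells against CD43+ckit- cells (adjusted p = 0.34). With library totals the first of these was -2.62 and it was called under every alternative tried.

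Eif1, which encodes the factor that holds the scanning ribosome open until the start codon is paired, differed at both steps. It had 417, 379 and 319 CPM in CD43++ckit+ cells, 681, 629 and 643 CPM in CD43+ckit- cells, and 1768, 1291 and 1308 CPM in CD43-ckit- cells. Its libraries fell into 3 separate ranges. The log2 fold changes were -0.81 ± 0.16 for CD43++ckit+ cells against CD43+ckit- cells (adjusted p = 0.00443), -1.97 ± 0.17 for CD43++ckit+ cells against CD43-ckit- cells (adjusted p = 1.9e-05) and -1.16 ± 0.16 for CD43+ckit- cells against CD43-ckit- cells (adjusted p = 0.000641). All 3 were called under every alternative tried. Of the 50-base words of Eif1 transcripts, 80.8% occur in no other annotated gene, so part of its reads could have been assigned elsewhere.

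Eif1a, one of the mouse genes for eIF1A, which promotes scanning and binding of the initiator tRNA, ran the other way. It had 62.9, 57.9 and 35.1 CPM in CD43++ckit+ cells, 14.9, 11.5 and 14.7 CPM in CD43+ckit- cells, and 17.5, 16.04 and 16.4 CPM in CD43-ckit- cells. All CD43++ckit+ libraries lay above the rest. It was 3.79-fold higher in CD43++ckit+ cells than in CD43+ckit- cells (adjusted p = 0.000459) and 3.12-fold higher than in CD43-ckit- cells (adjusted p = 0.000212), and CD43+ckit- cells differed from CD43-ckit- cells by -0.28 (adjusted p = 0.291).

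Its X-linked relative Eif1ax had 76.0, 76.5 and 59.0 CPM in CD43++ckit+ cells, 57.5, 53.7 and 61.9 CPM in CD43+ckit- cells, and 66.1, 60.0 and 60.0 CPM in CD43-ckit- cells. These overlapped, and it was not called in any comparison, with log2 fold changes of 0.29, 0.18 and -0.10 for CD43++ckit+ cells with CD43+ckit- cells, CD43++ckit+ cells with CD43-ckit- cells and CD43+ckit- cells with CD43-ckit- cells. Eif1ad, which carries an eIF1A-like domain, was higher in CD43++ckit+ cells than in CD43+ckit- cells by 0.40 and than in CD43-ckit- cells by 0.31, the second of which was 0.072 with DESeq2 size factors (adjusted p = 0.554). Eif1b, a close relative of Eif1, did not follow it, with 54.0, 52.3 and 44.5 CPM in CD43++ckit+ cells, 49.1, 55.6 and 51.6 CPM in CD43+ckit- cells, and 39.4, 33.8 and 40.0 CPM in CD43-ckit- cells. It was higher than in CD43-ckit- cells by 0.41 in CD43++ckit+ cells (adjusted p = 0.0168) and by 0.47 in CD43+ckit- cells (adjusted p = 0.014), calls that DESeq2 size factors ended (adjusted p = 0.216 and 0.0863). Eif5b, the factor for joining of the large ribosomal subunit, was not called in any comparison and varied up to 2.62-fold within a population.

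**Figure D3:**
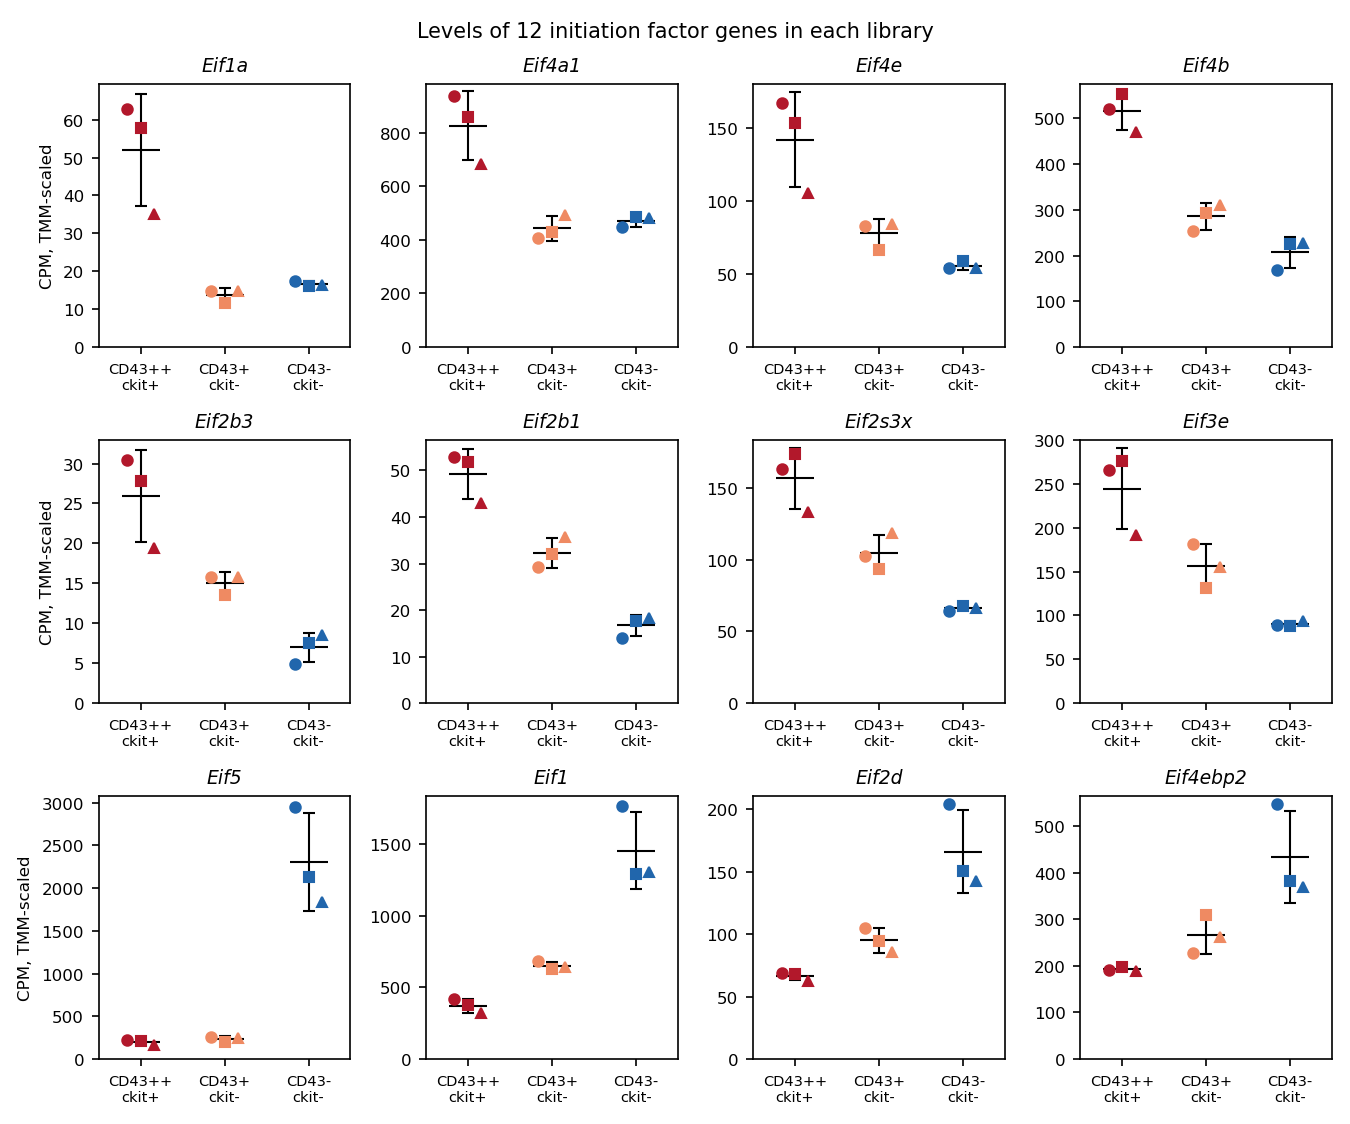
TMM-scaled CPM (vertical axes, linear) of 12 initiation factor genes in each library of the 3 populations; circles, squares and triangles are libraries 1, 2 and 3, black bars are means and whiskers are SDs. Eif5 separates only the CD43-ckit- libraries, Eif1 separates all 3 populations, and Eif1a and Eif4a1 separate the CD43++ckit+ libraries.

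Of the 3 tested eIF2 genes, 2 were called higher in CD43++ckit+ cells than in each of the other populations. Of all tested genes, 19.7% were called higher than in CD43+ckit- cells and 39.7% than in CD43-ckit- cells. Eif2s3x, the X-linked gene for the gamma subunit that binds GTP and the initiator tRNA, had 163, 174 and 133 CPM in CD43++ckit+ cells, 103, 93.3 and 118 CPM in CD43+ckit- cells, and 64.4, 67.5 and 66.6 CPM in CD43-ckit- cells. No population overlapped another. CD43++ckit+ cells were higher than CD43+ckit- cells by 0.58 ± 0.14 (adjusted p = 0.00896) and than CD43-ckit- cells by 1.24 ± 0.14 (adjusted p = 8.14e-05), and CD43+ckit- cells were higher than CD43-ckit- cells by 0.66 ± 0.14 (adjusted p = 0.00397). Only 65.4% of the 50-base words of its transcripts are found in no other annotated gene.

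Eif2s1, for the alpha subunit whose phosphorylation blocks eIF2B, had 151, 146 and 93.5 CPM in CD43++ckit+ cells, 91.3, 73.4 and 91.9 CPM in CD43+ckit- cells, and 94.8, 70.0 and 69.0 CPM in CD43-ckit- cells. Library 3 of CD43++ckit+ cells lay below library 1 of CD43-ckit- cells. The difference from CD43-ckit- cells was 0.74 ± 0.21 (adjusted p = 0.012). The difference from CD43+ckit- cells was 0.60 ± 0.21 (adjusted p = 0.0458), a call lost in 7 of 9 fits that left out 1 library (adjusted p = 0.0579 to 0.16). Eif2s2, for the beta subunit, had 124, 131 and 85.5 CPM in CD43++ckit+ cells, 109, 55.6 and 82.6 CPM in CD43+ckit- cells, and 98.0, 74.9 and 69.4 CPM in CD43-ckit- cells, which overlapped, and it was not called.

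Of the 5 eIF2B genes, the 2 that encode the catalytic subunits gamma and epsilon, Eif2b3 and Eif2b5, were higher in CD43++ckit+ cells than in CD43-ckit- cells. Eif2b3 had 30.5, 27.8 and 19.4 CPM in CD43++ckit+ cells, 15.8, 13.5 and 15.8 CPM in CD43+ckit- cells, and 4.95, 7.53 and 8.47 CPM in CD43-ckit- cells. The 3 populations held separate ranges, and CD43++ckit+ cells were 3.70-fold higher than CD43-ckit- cells (log2 1.89 ± 0.24, adjusted p = 0.000167). Eif2b5 had 99.0, 94.9 and 85.7 CPM in CD43++ckit+ cells, 74.4, 84.1 and 82.5 CPM in CD43+ckit- cells, and 33.8, 39.4 and 43.9 CPM in CD43-ckit- cells. Here the difference lay against CD43-ckit- cells, at 1.26 (adjusted p = 5.6e-05) for CD43++ckit+ cells and 1.04 (adjusted p = 0.000352) for CD43+ckit- cells.

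The regulatory subunit genes of eIF2B did not move as one. Eif2b1, for alpha, stepped down like Eif2b3, with 52.9, 51.8 and 43.1 CPM in CD43++ckit+ cells, 29.2, 32.1 and 35.7 CPM in CD43+ckit- cells, and 14.1, 17.7 and 18.3 CPM in CD43-ckit- cells. Its difference between CD43++ckit+ cells and CD43-ckit- cells was 1.56 (adjusted p = 4.47e-05). Eif2b2, for beta, had 49.2, 52.0 and 50.3 CPM in CD43++ckit+ cells, 59.0, 55.6 and 49.8 CPM in CD43+ckit- cells, and 30.2, 31.5 and 37.0 CPM in CD43-ckit- cells. Its low level was in CD43-ckit- cells, with CD43++ckit+ cells and CD43+ckit- cells higher by 0.62 and 0.74 (adjusted p = 0.00182 and 0.0014).

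Eif2b4, for delta, was the one eIF2B gene called lower in CD43++ckit+ cells than in CD43+ckit- cells. It had 61.7, 59.2 and 61.8 CPM in CD43++ckit+ cells, 121, 109 and 99.3 CPM in CD43+ckit- cells, and 82.8, 74.5 and 76.6 CPM in CD43-ckit- cells. The populations did not overlap. CD43++ckit+ cells were lower than CD43+ckit- cells by a log2 fold change of -0.85 ± 0.11 (adjusted p = 0.000696), under every alternative tried. Its lower level in CD43++ckit+ cells than in CD43-ckit- cells (-0.36 ± 0.11, adjusted p = 0.018) turned with library totals to a called 0.56 (adjusted p = 0.00155), and it was not called without library 1 or without library 2 of CD43++ckit+ cells (adjusted p = 0.0614 and 0.0892).

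Single-protein factors that can bring tRNA to the ribosome without eIF2 went opposite ways. Eif2a had 67.4, 72.9 and 52.2 CPM in CD43++ckit+ cells, 63.9, 35.3 and 49.6 CPM in CD43+ckit- cells, and 25.0, 27.8 and 27.4 CPM in CD43-ckit- cells. It was higher than CD43-ckit- cells by 1.26 in CD43++ckit+ cells (adjusted p = 0.000808) and by 0.89 in CD43+ckit- cells (adjusted p = 0.00832). Eif2d, whose product also helps to recycle ribosomes, had 69.2, 67.9 and 62.5 CPM in CD43++ckit+ cells, 105, 94.7 and 85.5 CPM in CD43+ckit- cells, and 204, 151 and 143 CPM in CD43-ckit- cells. Its 3 populations did not overlap, and CD43++ckit+ cells were below CD43-ckit- cells by a log2 fold change of -1.32 ± 0.16 (adjusted p = 0.000113). The step between CD43++ckit+ cells and CD43+ckit- cells (-0.51, adjusted p = 0.0267) missed the threshold with library totals (adjusted p = 0.0625), and in 5 of the 9 fits that left out 1 library (adjusted p = 0.0582 to 0.0898), and the library totals also ended the step between CD43+ckit- cells and CD43-ckit- cells (adjusted p = 0.224).

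eIF3 is the large complex that binds the small ribosomal subunit and eIF4G. Of its 12 tested subunit genes, 9 were higher and 1 lower in CD43++ckit+ cells than in CD43-ckit- cells, with a median log2 fold change of 0.67, beside 39.7% and 27.7% of all tested genes. CD43+ckit- cells against CD43-ckit- cells gave 8 higher, 1 lower and a median of 0.65, beside 31% and 20.9% of all tested genes. CD43++ckit+ cells against CD43+ckit- cells gave 2 higher, none lower and a median of 0.21, beside 19.7% and 20.1%. With DESeq2 size factors Eif3c was no longer called against CD43-ckit- cells in CD43++ckit+ cells (0.10, adjusted p = 0.478; with TMM 0.34, adjusted p = 0.0495). Eif3e stepped down at both points, with 266, 276 and 192 CPM in CD43++ckit+ cells, 182, 132 and 156 CPM in CD43+ckit- cells, and 88.5, 88.2 and 93.7 CPM in CD43-ckit- cells. Its libraries fell into 3 separate ranges. CD43++ckit+ cells were 2.71-fold higher than CD43-ckit- cells (adjusted p = 0.000115), while the difference of 0.65 from CD43+ckit- cells (adjusted p = 0.0143) was lost without library 1 or without library 2 of CD43++ckit+ cells (adjusted p = 0.0581 and 0.0614).

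Eif3m had 135, 142 and 105 CPM in CD43++ckit+ cells, 129.7, 90.1 and 100.1 CPM in CD43+ckit- cells, and 52.0, 54.5 and 59.7 CPM in CD43-ckit- cells, so the low level was in CD43-ckit- cells (CD43++ckit+ cells higher by 1.20, adjusted p = 0.000281; CD43+ckit- cells higher by 0.95, adjusted p = 0.002). Eif3l and Eif3g had the same form, with 1.02 and 1.05 for CD43++ckit+ cells and 0.87 and 0.70 for CD43+ckit- cells. Eif3d, Eif3f and Eif3h were higher by 0.72, 0.62 and 0.61 in CD43++ckit+ cells than in CD43-ckit- cells. Eif3k was higher than in CD43-ckit- cells by 0.59 in CD43+ckit- cells (adjusted p = 0.0071) and by 0.28 in CD43++ckit+ cells (adjusted p = 0.0979).

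Eif3i, whose product is a scaffold-like subunit bound to eIF3b, was the one eIF3 gene called lower in CD43++ckit+ cells than in CD43-ckit- cells. It had 170.0, 169 and 161 CPM in CD43++ckit+ cells, 186, 209.6 and 182 CPM in CD43+ckit- cells, and 298, 270.0 and 284 CPM in CD43-ckit- cells. The CD43-ckit- libraries lay above the others (log2 -0.77 ± 0.11 for CD43++ckit+ cells, adjusted p = 0.000264; -0.56 ± 0.11 for CD43+ckit- cells, adjusted p = 0.00274), and with library totals both signs turned, to 0.15 and 0.087. Eif3b, which encodes a core subunit, had 536, 497 and 449 CPM in CD43++ckit+ cells, 305, 411 and 392 CPM in CD43+ckit- cells, and 457, 448 and 434 CPM in CD43-ckit- cells. It was higher in CD43++ckit+ cells than in CD43+ckit- cells by 0.42 (adjusted p = 0.0408) and differed from CD43-ckit- cells by 0.15 (adjusted p = 0.362). With DESeq2 size factors the call was lost (0.37, adjusted p = 0.0662) and the second difference was -0.094. Eif3a, for the largest core subunit, had 493, 527 and 225 CPM in CD43++ckit+ cells, 373, 139 and 193 CPM in CD43+ckit- cells, and 199, 176 and 158 CPM in CD43-ckit- cells. The spread within CD43++ckit+ cells and CD43+ckit- cells was over 2-fold, and its call against CD43-ckit- cells (1.22 ± 0.40, adjusted p = 0.0223) rests on those spread values.

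**Figure D4:**
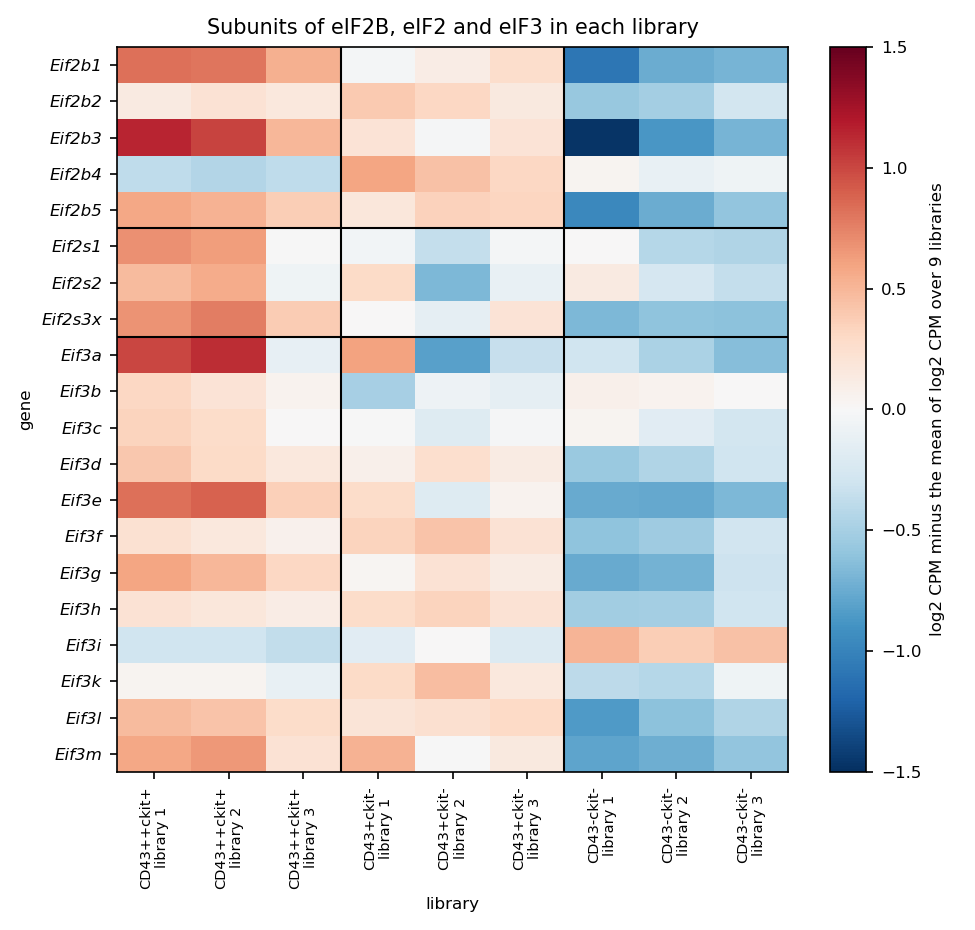
Log2 CPM minus the gene's mean over all 9 libraries (colour, from -1.5 to 1.5) for the subunit genes of eIF2B, eIF2 and eIF3 (rows) in each library (columns, by population). Most rows are above their mean in CD43++ckit+ cells and below it in CD43-ckit- cells, while Eif3i runs the other way on this TMM scale (its sign turns with library totals) and Eif2b4 is highest in CD43+ckit- cells.

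Eif4a1, Eif4e and Eif4b separated CD43++ckit+ cells from the rest. Eif4a1, for the main helicase, had 939, 858 and 685 CPM in CD43++ckit+ cells, 406, 429.8 and 494 CPM in CD43+ckit- cells, and 447, 486 and 481 CPM in CD43-ckit- cells. Every CD43++ckit+ library lay above all others, and those of CD43+ckit- cells and CD43-ckit- cells overlapped. The log2 fold changes were 0.90 ± 0.15 (adjusted p = 0.00173) against CD43+ckit- cells and 0.81 ± 0.15 (adjusted p = 0.00109) against CD43-ckit- cells. Of the 50-base words of its transcripts, 71.6% occur in no other annotated gene. Its relative Eif4a2 had 199, 188 and 122 CPM in CD43++ckit+ cells, 169, 94.1 and 139.8 CPM in CD43+ckit- cells, and 193, 148 and 137 CPM in CD43-ckit- cells, which overlapped and were not called. Eif4a3, whose product belongs to the exon junction complex, was higher in CD43++ckit+ cells by 0.44 and 0.72 than in CD43+ckit- cells and CD43-ckit- cells.

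Eif4e, for the cap-binding protein, had 168, 154 and 106 CPM in CD43++ckit+ cells, 83.2, 66.8 and 84.6 CPM in CD43+ckit- cells, and 54.0, 59.0 and 54.2 CPM in CD43-ckit- cells. No population overlapped another. CD43++ckit+ cells were higher than CD43+ckit- cells by 0.86 ± 0.18 (adjusted p = 0.00497) and than CD43-ckit- cells by 1.35 ± 0.18 (adjusted p = 0.000209), under every alternative tried. The smaller step between CD43+ckit- cells and CD43-ckit- cells (0.49 ± 0.18, adjusted p = 0.0458) missed the threshold with DESeq2 size factors (adjusted p = 0.183) and with the library number as a block in the fit of all 9 libraries (adjusted p = 0.0529). Eif4b, for the cofactor that stimulates eIF4A, had 520.1, 554 and 471 CPM in CD43++ckit+ cells, 254, 294 and 312 CPM in CD43+ckit- cells, and 168, 226 and 228 CPM in CD43-ckit- cells. CD43++ckit+ cells were higher than CD43+ckit- cells by 0.85 ± 0.15 (adjusted p = 0.00268) and than CD43-ckit- cells by 1.31 ± 0.16 (adjusted p = 0.000109). The step between CD43+ckit- cells and CD43-ckit- cells was 0.46 ± 0.15 (adjusted p = 0.0309), lost with DESeq2 size factors (adjusted p = 0.184). In fits that left out 1 library its adjusted p was 0.0273 to 0.134.

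The other cap-binding genes did not follow Eif4e. Eif4e2, for a cap-binding protein that does not join eIF4G, had 75.2, 76.8 and 68.2 CPM in CD43++ckit+ cells, 79.2, 80.9 and 77.0 CPM in CD43+ckit- cells, and 108, 79.8 and 85.3 CPM in CD43-ckit- cells. With TMM it was not called. Against CD43-ckit- cells the other scalings called it in opposite directions. DESeq2 size factors gave -0.55 for CD43++ckit+ cells (adjusted p = 0.00358) and -0.40 for CD43+ckit- cells (adjusted p = 0.0245). Library totals gave 0.62 (adjusted p = 0.000267) and 0.46 (adjusted p = 0.00235). Eif4e3 was low, with 0.589, 0.137 and 3.55 CPM in CD43++ckit+ cells, 0.538, 2.98 and 2.15 CPM in CD43+ckit- cells, and 5.34, 12.4 and 10.6 CPM in CD43-ckit- cells, the CD43-ckit- libraries above the others. Its difference of CD43++ckit+ cells from CD43-ckit- cells (-2.71 ± 1.03, adjusted p = 0.0417) was lost with library totals (adjusted p = 0.155). That of CD43+ckit- cells was -2.32 (adjusted p = 0.0819). In a fit of these 2 populations it was called without a block (-2.36, adjusted p = 0.0126) and with the library number as a block (-2.51, adjusted p = 1.94e-18). The last p-value is no measure of certainty, since it rests on low counts in 3 libraries of each population. Within CD43+ckit- cells the level varied 5.55-fold.

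The promoters of 2 genes from the first group and 2 from the opposite one are shown as examples from genes that were higher in CD43++ckit+ cells (Eif4a1 and Eif4e) and genes that were higher in CD43-ckit- cells (Eif5 and Eif1). Each window holds the 250 bases before the annotated start in RefSeq, build GRCm38.p6, 5′ to 3′ on the gene's strand. Capitals mark CACGTG, the E-box bound by MYC and related factors, which reads the same on both strands. Eif4a1 lies on the minus strand at chr11:69672424-69672673, Eif4e on the plus strand at chr3:138527018-138527267, Eif5 on the plus strand at chr12:111537851-111538100 and Eif1 on the plus strand at chr11:100319699-100319948.
Eif4a1: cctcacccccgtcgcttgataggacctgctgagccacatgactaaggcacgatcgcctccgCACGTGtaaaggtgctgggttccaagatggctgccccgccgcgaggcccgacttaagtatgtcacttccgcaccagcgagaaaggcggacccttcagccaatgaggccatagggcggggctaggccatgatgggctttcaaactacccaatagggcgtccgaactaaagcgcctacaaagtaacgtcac
Eif4e: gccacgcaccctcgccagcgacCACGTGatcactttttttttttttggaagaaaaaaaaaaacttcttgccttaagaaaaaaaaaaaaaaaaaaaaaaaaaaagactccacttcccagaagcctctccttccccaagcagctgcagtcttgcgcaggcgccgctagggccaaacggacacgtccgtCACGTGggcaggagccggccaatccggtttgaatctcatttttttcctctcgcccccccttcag
Eif5: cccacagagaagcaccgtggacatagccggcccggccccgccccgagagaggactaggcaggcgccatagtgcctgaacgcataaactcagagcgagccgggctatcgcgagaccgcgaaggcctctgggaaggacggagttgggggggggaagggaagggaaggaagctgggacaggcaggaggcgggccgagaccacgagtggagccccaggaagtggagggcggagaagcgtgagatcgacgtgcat
Eif1: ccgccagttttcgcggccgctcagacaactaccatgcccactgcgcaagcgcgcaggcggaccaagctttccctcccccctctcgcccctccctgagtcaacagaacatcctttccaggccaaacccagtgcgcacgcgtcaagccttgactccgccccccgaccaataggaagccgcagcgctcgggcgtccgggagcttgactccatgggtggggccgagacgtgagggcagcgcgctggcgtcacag

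The Eif4a1 window holds 1 copy, starting 189 bases before the annotated start. The Eif4e window holds 2 copies, at 228 and 64 bases, and another annotated start of Eif4e has none in its window. The windows of Eif5 and Eif1 do not contain these letters. Among the 39 initiation factor genes with a promoter in the table, 9 hold the hexamer in such a window (23.1%), as do 1854 of 27025 genes in the whole table (6.86%). A gene was counted if any of its windows matched. The whole table includes genes that were not tested here, and no share was taken over tested genes alone, so these shares are not of like sets. The 9 are Eif1b, Eif3f, Eif3k, Eif4a1, Eif4e, Eif4g1, Eif4h, Eif5a and Eif5a2. Eif4g1 and Eif5a, called lower in CD43++ckit+ cells than in CD43-ckit- cells, hold it, Eif5a in the windows of some of its annotated starts, while Eif4b, Eif2s3x, Eif2b1 and Eif2b5, called higher, do not. Of the other holders, Eif1b, Eif3f, Eif4a1 and Eif4e were called higher in that comparison, and Eif3k, Eif4h and Eif5a2 were not called. With library totals Eif4g1 and Eif5a turned to 0.18 and 0.34. Whether the hexamer bears on these levels was not tested. A match is a string of letters in the window and says nothing of binding here.

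All 3 genes for 4E-binding proteins, the brakes on eIF4E, had their highest TMM-scaled means in CD43-ckit- cells, but with library totals Eif4ebp1 turned direction. Eif4ebp2 had 192, 197 and 189 CPM in CD43++ckit+ cells, 228, 309.6 and 262 CPM in CD43+ckit- cells, and 548, 382 and 370.0 CPM in CD43-ckit- cells. The 3 populations held separate ranges, with log2 fold changes of -0.47 for CD43++ckit+ cells against CD43+ckit- cells (adjusted p = 0.0644), -1.17 ± 0.18 for CD43++ckit+ cells against CD43-ckit- cells (adjusted p = 0.000428) and -0.70 ± 0.18 for CD43+ckit- cells against CD43-ckit- cells (adjusted p = 0.0102). Eif4ebp1 had 47.8, 48.2 and 54.4 CPM in CD43++ckit+ cells, 41.8, 60.3 and 48.6 CPM in CD43+ckit- cells, and 81.9, 76.2 and 77.7 CPM in CD43-ckit- cells. It was lower, at -0.65 ± 0.15 on the log2 scale, in both CD43++ckit+ cells and CD43+ckit- cells than in CD43-ckit- cells (adjusted p = 0.00347 and 0.00577). These directions depend on the scaling. With library totals Eif4ebp1 turned to 0.27 and 0.0052, and Eif4ebp2 was no longer called (-0.23, adjusted p = 0.154, and -0.02, adjusted p = 0.879).

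Eif4ebp3 had 5.32, 5.20 and 3.51 CPM in CD43++ckit+ cells, 8.57, 3.69 and 4.52 CPM in CD43+ckit- cells, and 11.7, 9.62 and 8.54 CPM in CD43-ckit- cells. CD43++ckit+ cells were lower than CD43-ckit- cells (-1.09 ± 0.34, adjusted p = 0.018), but not with library totals (adjusted p = 0.628) or without library 1 of CD43-ckit- cells (adjusted p = 0.0564). CD43+ckit- cells differed from CD43-ckit- cells by -0.83 (adjusted p = 0.0642), a difference called in a fit of these 2 populations, both without a block (-0.90, adjusted p = 0.0458) and with the library number as a block (-0.97, adjusted p = 0.000136). Only 34.5% of the 50-base words of its transcripts occur in no other annotated gene. Eif4enif1, for the eIF4E transporter that carries eIF4E and represses bound mRNAs, was higher in CD43+ckit- cells than in CD43-ckit- cells by 0.37 (adjusted p = 0.0286), but not with DESeq2 size factors (0.17, adjusted p = 0.202).

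Of the scaffold genes, Eif4g1 had 684, 685 and 601 CPM in CD43++ckit+ cells, 768, 797 and 771 CPM in CD43+ckit- cells, and 1463, 982 and 908 CPM in CD43-ckit- cells. The populations did not overlap. It was lower in CD43++ckit+ cells than in CD43-ckit- cells (-0.77 ± 0.18, adjusted p = 0.00488) and in CD43+ckit- cells than in CD43-ckit- cells (-0.52 ± 0.18, adjusted p = 0.0387), and library totals turned these to 0.18 and 0.16. The difference of CD43+ckit- cells was lost in 5 of the 9 fits that left out 1 library, that without library 1 of CD43-ckit- cells among them (adjusted p = 0.0537 to 0.108). Eif4g3 was instead higher in CD43++ckit+ cells than in CD43-ckit- cells by 0.61 (adjusted p = 0.00241), a scaffold gene whose direction did not follow Eif4g1. Eif4g2, for a scaffold that lacks the eIF4E-binding site, had 1051, 1065 and 758 CPM in CD43++ckit+ cells, 927, 759 and 923 CPM in CD43+ckit- cells, and 1421, 1111 and 1000 CPM in CD43-ckit- cells. With TMM in the fit of all 9 libraries Eif4g2 was not called, with -0.44 between CD43+ckit- cells and CD43-ckit- cells (adjusted p = 0.0776). A fit of these 2 populations gave -0.50 without a block (adjusted p = 0.0528) and -0.49 with the library number as a block (adjusted p = 0.0407). DESeq2 size factors called this difference (-0.63, adjusted p = 0.0179). For CD43++ckit+ cells against CD43-ckit- cells, the calls were opposite with DESeq2 size factors (-0.54, adjusted p = 0.0246) and library totals (0.63, adjusted p = 0.00198).

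Eif5a, for the hypusine-bearing factor that also acts in elongation, had 1086, 1049 and 1095 CPM in CD43++ckit+ cells, 835, 1070 and 936 CPM in CD43+ckit- cells, and 1601, 1601 and 1612 CPM in CD43-ckit- cells. On the TMM scale the CD43-ckit- libraries lay above the others, an order that library totals turned for CD43++ckit+ cells (0.34), with log2 fold changes of -0.58 ± 0.13 for CD43++ckit+ cells (adjusted p = 0.00313) and -0.76 ± 0.13 for CD43+ckit- cells (adjusted p = 0.00138). The difference of CD43+ckit- cells missed the threshold with library totals (-0.11, adjusted p = 0.503). Eif5a2, the paralog, had 0.230, 0.274 and 0.982 CPM in CD43++ckit+ cells, 4.67, 1.07 and 0.897 CPM in CD43+ckit- cells, and 1.49, 0.785 and 1.08 CPM in CD43-ckit- cells, and was not called. Eif6, whose product keeps the large ribosomal subunit apart from the small one, had 119, 110.4 and 111 CPM in CD43++ckit+ cells, 95.5, 112 and 92.6 CPM in CD43+ckit- cells, and 68.3, 79.5 and 93.2 CPM in CD43-ckit- cells. It was higher in CD43++ckit+ cells than in CD43-ckit- cells by 0.50 ± 0.14 (adjusted p = 0.0113), a call lost with DESeq2 size factors (adjusted p = 0.139).

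By population means, 19 of the 47 genes were highest in CD43++ckit+ cells and lowest in CD43-ckit- cells (40.4%, beside 30.9% of all tested genes), and 10 were the reverse (21.3%, beside 25.8%). A called fall at both steps, with CD43++ckit+ cells above CD43+ckit- cells and these above CD43-ckit- cells, was found in 6 genes (Eif2b1, Eif2b3, Eif2s3x, Eif3e, Eif4b and Eif4e), or 12.8%, beside 5.76% of all tested genes. A called rise at both steps was found in 2 (Eif1 and Eif2d), or 4.26%, beside 7.44%. The first step of Eif2b3 (0.78 ± 0.23, adjusted p = 0.0255) was lost in 5 of the 9 fits that left out 1 library (adjusted p = 0.0526 to 0.103), and the second step of Eif4e in 7 of them (adjusted p = 0.0518 to 0.12). In these fits the adjusted p also reached 0.134 for the second step of Eif4b. It reached 0.0614, 0.0501 and 0.0898 for the first steps of Eif3e, Eif2b1 and Eif2d. Another 7 genes, among them Eif3k, Eif4h and Eif2b2, had their highest mean in CD43+ckit- cells and their lowest in CD43-ckit- cells (14.9%, beside 15.3% of all tested genes).

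The other genes of the pathway were taken from lists of its regulators and partners. The genes named from a list were called and among its 2 smallest adjusted p-values in a comparison. They were thus picked for their results and need not be typical of their lists. Their counts stand beside the shares of all tested genes, which were 19.7% higher and 20.1% lower in CD43++ckit+ cells than in CD43+ckit- cells, 39.7% and 27.7% in CD43++ckit+ cells than in CD43-ckit- cells, and 31% and 20.9% in CD43+ckit- cells than in CD43-ckit- cells. Of 6 genes for eIF2 alpha kinases and the phosphatase that reverses them, 1 was higher and 2 were lower in CD43++ckit+ cells than in CD43+ckit- cells, 1 was higher and 3 were lower in CD43++ckit+ cells than in CD43-ckit- cells, and 1 was higher and 2 were lower in CD43+ckit- cells than in CD43-ckit- cells. Eif2ak1, which encodes HRI, had 146, 140.4 and 162 CPM in CD43++ckit+ cells, 549, 564 and 531 CPM in CD43+ckit- cells, and 2264, 1645 and 1410 CPM in CD43-ckit- cells. Its libraries fell into 3 separate ranges, and the log2 fold changes were -1.87, -3.57 and -1.69 for CD43++ckit+ cells with CD43+ckit- cells (adjusted p = 0.000326), CD43++ckit+ cells with CD43-ckit- cells (adjusted p = 1.9e-06) and CD43+ckit- cells with CD43-ckit- cells (adjusted p = 0.000163). The erythroid marker sum ran in the same order of populations, and its part in these levels was not tested. Ppp1r15a, for the stress-induced subunit that guides a phosphatase to eIF2 alpha, had 119, 81.6 and 62.4 CPM in CD43++ckit+ cells, 1000, 515 and 624 CPM in CD43+ckit- cells, and 6306, 3967 and 3434 CPM in CD43-ckit- cells, again in 3 separate ranges.

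Mknk2, for a kinase that phosphorylates eIF4E, had 287, 316 and 356 CPM in CD43++ckit+ cells, 786, 745 and 581 CPM in CD43+ckit- cells, and 1961, 1711 and 1466 CPM in CD43-ckit- cells, with no overlap between populations. It was among 8 genes that regulate cap binding, of which 3 were higher and 3 lower in CD43++ckit+ cells than in CD43-ckit- cells. Against CD43+ckit- cells, CD43++ckit+ cells had 4 of the 8 lower and none higher, and CD43+ckit- cells had 4 higher and 1 lower than CD43-ckit- cells. Rptor, for the mTORC1 subunit that brings in the 4E-binding proteins, peaked in CD43+ckit- cells: CD43++ckit+ cells stood at -0.64 against them (adjusted p = 0.00388) and CD43+ckit- cells were higher than CD43-ckit- cells by 0.88 (adjusted p = 0.000695).

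Pabpc1, for the main poly(A)-binding protein, which contacts eIF4G, had 1528, 1668 and 1442 CPM in CD43++ckit+ cells, 2386, 2134 and 2085 CPM in CD43+ckit- cells, and 15362, 11685 and 9469 CPM in CD43-ckit- cells. Like Eif5, it set CD43-ckit- cells apart, with log2 fold changes of -2.98 for CD43++ckit+ cells (adjusted p = 4.93e-06) and -2.47 for CD43+ckit- cells (adjusted p = 4.65e-05). Dohh, for the enzyme that completes hypusine on eIF5A, had 51.6, 51.6 and 59.5 CPM in CD43++ckit+ cells, 66.5, 101 and 72.8 CPM in CD43+ckit- cells, and 737, 683 and 615 CPM in CD43-ckit- cells, a log2 fold change of -3.65 for CD43++ckit+ cells against CD43-ckit- cells (adjusted p = 1.66e-06). Of the 5 poly(A)-binding genes 1 was higher and 2 were lower in CD43++ckit+ cells than in CD43-ckit- cells, 1 was higher and 1 lower than in CD43+ckit- cells, and 2 were higher and 2 lower in CD43+ckit- cells than in CD43-ckit- cells. Of the 2 hypusine enzyme genes Dohh was the one called, in all 3 comparisons. Its call between CD43++ckit+ cells and CD43+ckit- cells was lost with library totals (adjusted p = 0.217). Fits that left out 1 library gave -0.68 to -0.31 there (adjusted p = 0.0207 to 0.126). Pabpc4, an inducible relative of Pabpc1, was highest in CD43+ckit- cells (1765, 1525 and 1556 CPM).

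Of 8 genes for scanning helpers, ribosome recycling and eIF2 assembly, 6 were higher and none lower in CD43++ckit+ cells than in CD43+ckit- cells, 7 were higher and none lower than in CD43-ckit- cells, and 3 were higher and none lower in CD43+ckit- cells than in CD43-ckit- cells. Abce1, for the ATPase that splits terminated ribosomes, had 183, 191 and 98.1 CPM in CD43++ckit+ cells, 63.7, 41.7 and 62.8 CPM in CD43+ckit- cells, and 33.1, 39.7 and 39.4 CPM in CD43-ckit- cells. Bzw2, whose product resembles part of eIF5 and competes with it for eIF2, had 123, 117 and 75.8 CPM in CD43++ckit+ cells, 9.48, 21.3 and 25.1 CPM in CD43+ckit- cells, and 10.5, 21.5 and 26.0 CPM in CD43-ckit- cells. Both separated the CD43++ckit+ libraries from all others, and Bzw2 was higher there by 2.49 than in CD43+ckit- cells (adjusted p = 0.00208) and by 2.44 than in CD43-ckit- cells (adjusted p = 0.000897). Dhx29, for a helicase of structured leaders, was higher by 0.87 and 1.64 in CD43++ckit+ cells than in CD43+ckit- cells and CD43-ckit- cells (adjusted p = 0.0052 and 9.44e-05).

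**Figure D5:**
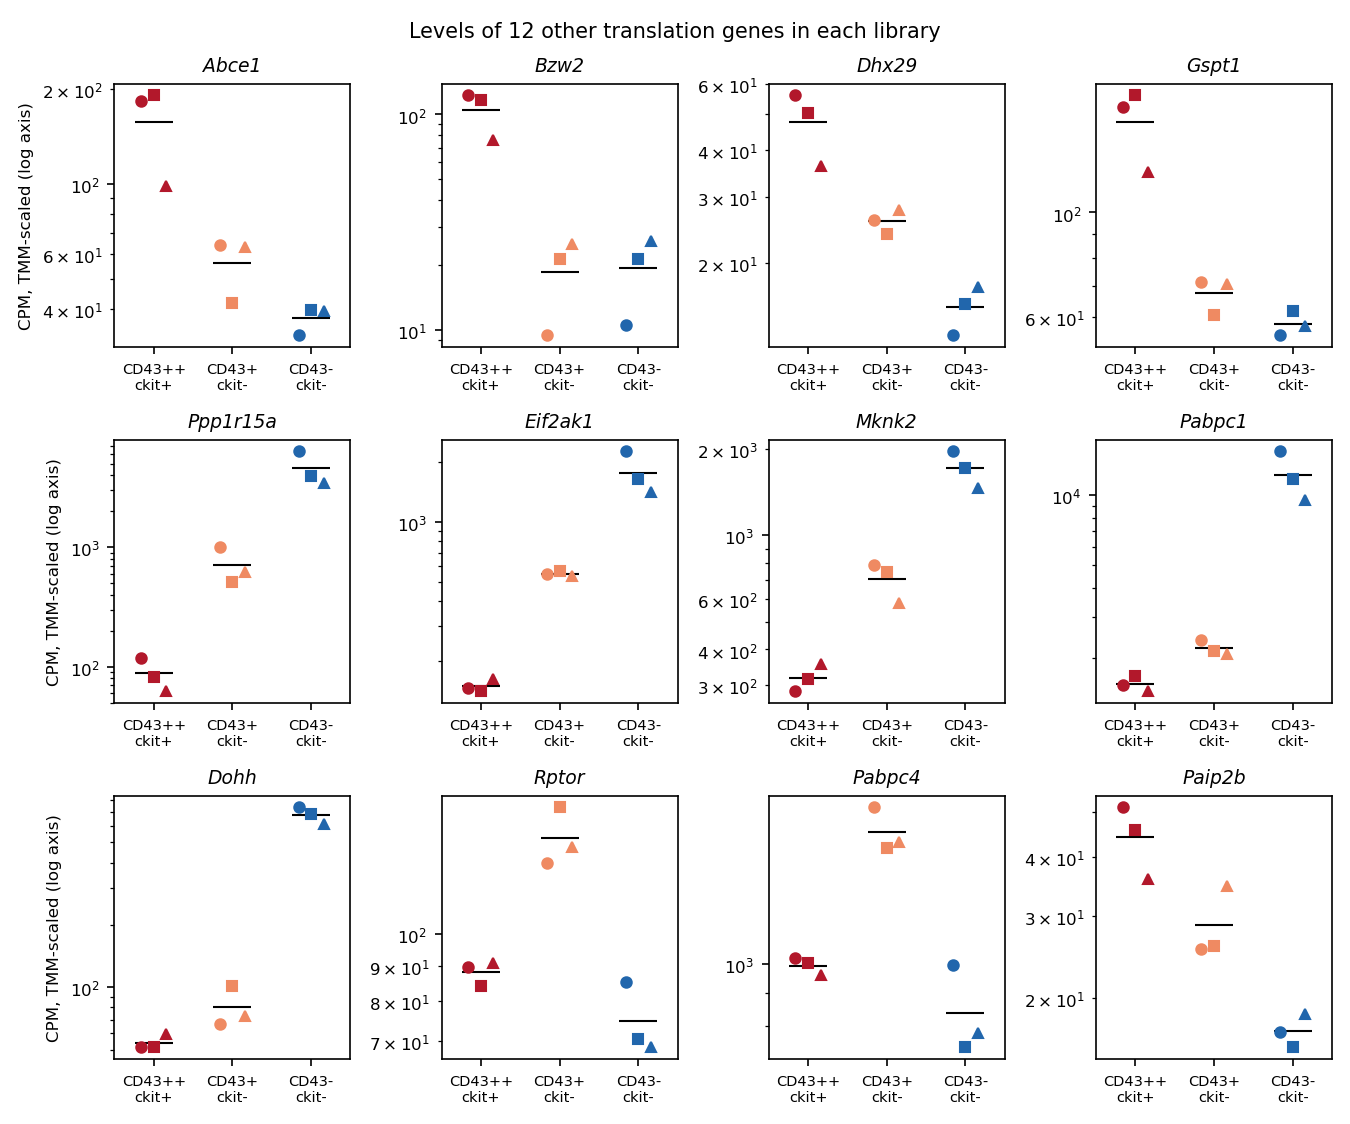
TMM-scaled CPM (vertical axes, log scale) of 12 other translation genes in each library of the 3 populations, with the population mean as a bar. The genes shown were picked from their lists for small adjusted p-values. Eif2ak1, Ppp1r15a and Mknk2 climb from CD43++ckit+ cells through CD43+ckit- cells to CD43-ckit- cells, Pabpc1 and Dohh stand apart in CD43-ckit- cells, and Abce1 and Bzw2 are highest in CD43++ckit+ cells.

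Libraries of 1 population differed in ways that touch these genes. Library 3 of CD43++ckit+ cells was the lowest of its population for 39 of the 47 genes (83.0%), beside 56.8% of all tested genes. It also had the highest neutrophil marker sum of its population, 6057 CPM, against 355 and 95.5 CPM in libraries 1 and 2 of CD43++ckit+ cells. Other sums differed too. In the order of libraries 3, 1 and 2, erythroid markers had 2869, 2013 and 1997 CPM and B lineage markers 25.5, 6.91 and 3.47 CPM. T and NK cell markers had 24.5, 6.66 and 5.01 CPM and monocyte and macrophage markers 174.7, 30.5 and 17.8 CPM. Mast cell and basophil markers had 546, 1075 and 929 CPM, and Kit with Spn 578, 731 and 691 CPM. Eif3a was 2.34-fold and Eif5b 2.43-fold lower in the lowest than in the highest CD43++ckit+ library. Whether the differences in marker sums bear on these levels was not tested. When the least correlated library of each population was left out, library 3 of CD43++ckit+ cells among them, 23 genes were higher and 6 lower in CD43++ckit+ cells than in CD43+ckit- cells, with Eif2a then called at 0.72 (adjusted p = 9.57e-05). In that fit 8557 of 12655 tested genes were called (4376 higher and 4181 lower), beside 5005 of 12573 in the fit of all libraries.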

How the data were processed

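RNA-seq counts per gene symbol were used as deposited, whole numbers that sum to different totals per library. The submitters' processing notes name CASAVA 1.8, TopHat2 2.0.4, RSEM, HTSeq and edgeR without roles, and GRCh38, a human genome build, although the symbols are those of mouse genes, so the build behind the counts is unsettled. The annotation and the handling of strand are not given in the labels or file, so reads of overlapping or near-identical genes may have been split. The tests ran in edgeR 4.0.16 under R 4.3.3: TMM, a filter on low counts (minimum count 10, minimum total 15), a robust quasi-likelihood fit of all 9 libraries and Benjamini-Hochberg adjustment over all tested genes. The fit was also run on simulated counts with few changed genes, which cannot test the scaling of libraries in which many genes differ. Named genes were, per comparison, the 5 called members with the largest change each way at a mean log2 CPM of at least 3, plus factors with known control points and close paralogs; members and lists were chosen with earlier results of these data known, and members outside this rule that are named were chosen after their values were seen. The labels do not say what a library number marks. Between CD43+ckit- and CD43-ckit-, the deviations of same-numbered libraries correlated at 0.53, 0.37 and 0.30 over genes. Library 3 of CD43+ckit- correlated better with library 2 of CD43-ckit- (0.35) than with its own number, so a pairing by number is not established. In each of the other comparisons the 2 libraries numbered 2 correlated negatively. Uniqueness of 50-base words was counted in GENCODE M21 transcripts. Alternatives were DESeq2 size factors, library totals, no filter, a stricter filter of 1 CPM, DESeq2 1.42.0, the block, fits of 2 populations and leaving out libraries. What is called DESeq2 size factors here was the RLE scaling of edgeR, used in the edgeR test, and only DESeq2 1.42.0 ran in DESeq2 itself.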

Additional observations from a re-analysis of the deposited data

How the results depend on the processing

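At a depth of 17966197 to 31781746 counts, the low counts of Eif4e3 and Eif5a2 limit the precision of their values. Over 18 alternatives, 2416 of 2694 values for single genes had the direction and side of the threshold reported, 113 lost their call, 100 gained one and 65 changed sign. The cause of the changes below was not tested. The comparisons are called the first (CD43++ckit+ minus CD43+ckit-), the second (CD43++ckit+ minus CD43-ckit-) and the third (CD43+ckit- minus CD43-ckit-).

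With DESeq2 size factors the lower calls numbered 5 in the first and 13 in the third, and the median of the third was 0.087. Among the genes named by rule, signs turned in the second for Eif1ax (-0.056), Eif4a2 (-0.15) and Rptor (-0.0012) and in the third for Eif2s1 (-0.060). DESeq2's own test gave 8 lower in the first, 16 lower in the third and a median of 0.087 there, with Eif1ax (-0.056), Eif4a2 (-0.15), Rptor (-0.00087) and Eif2s1 (-0.060) turned. With library totals there were 23 higher in the first, 3 lower in the second (median 1.32), and 31 higher and 2 lower in the third (median 0.92). Signs then turned in the first for Cdc123 (0.21), Eif1b (0.21), Eif3i (0.060), Eif4e2 (0.16), Eif4ebp1 (0.27), Eif4ebp3 (0.0078), Eif4g1 (0.016) and Mtor (0.17). They turned in the second for Eif2b4 (0.56), Eif3i (0.15), Eif4e2 (0.62), Eif4ebp1 (0.27), Eif4g1 (0.18), Eif4g2 (0.63), Eif5a (0.34) and Rps6kb2 (0.40). They turned in the third for Bzw2 (0.55), Eif1a (0.37), Eif1ax (0.55), Eif3i (0.087), Eif4a1 (0.55), Eif4a2 (0.42), Eif4e2 (0.46), Eif4ebp1 (0.0052), Eif4g1 (0.16), Eif4g2 (0.23) and Etf1 (0.40). Further tested initiation factor genes also turned, none of them called in that comparison in the report. With DESeq2 size factors these were Eif3b (-0.094) and Eif4enif1 (-0.14) in the second and Eif2s2 (-0.17) and Eif3c (-0.14) in the third. With library totals they were Eif2b2 (0.15), Eif3f (0.091), Eif3h (0.15) and Eif4h (0.21) in the first, Eif5b (0.70) in the second, and Eif1ad (0.55, then called) and Eif3b (0.38) in the third. DESeq2 size factors also ended the call of Eif4h in the third (0.12, adjusted p = 0.356).

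Without the low-count filter the median of the third was 0.38, and Eif4ebp1 in the first (0.010) and Bzw2 (0.051), Eif1ax (0.00075) and Eif4a1 (0.018) in the third changed sign. With the stricter filter that median was 0.12, and Eif1ax (-0.0042) and Eif4a2 (-0.10) in the second and Eif2s1 (-0.023) in the third changed sign. With the least correlated library of every population left out, 23 genes were higher and 6 lower in the first, with Cdc123 (0.048) and Eif4ebp3 (0.35) turned there and Eif4g2 (0.0064) in the second. With only the 2 populations in the fit, Eif4ebp1 in the first (0.015) and Eif4a2 in the second (-0.011) turned.

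Leaving out 1 library at a time gave 5 to 15 higher, 2 to 5 lower and a median of 0.17 to 0.27 in the first, 21 to 26 higher, 9 to 12 lower and 0.34 to 0.51 in the second, and 16 to 20 higher, 7 to 10 lower and 0.10 to 0.32 in the third. Over all tested genes these fits gave 1607 to 2935 higher and 1886 to 2984 lower in the first. The ranges were 4455 to 5241 and 2911 to 4293 in the second, and 3069 to 4213 and 1889 to 3587 in the third. In these fits signs turned in the first for Eif4ebp1 (-0.12 to 0.20), Eif4e3 (-2.35 to 0.15), Eif1b (-0.10 to 0.044), Eif4ebp3 (-0.43 to 0.18) and Cdc123 (-0.10 to 0.00081), in the second for Eif4a2 (-0.018 to 0.29), and in the third for Bzw2 (-0.34 to 0.28) and Eif5a2 (-0.16 to 1.38), none of them called in the report in that comparison. Eif2b3 in the first lost its call in 5 of them (adjusted p = 0.0526 to 0.103), and Eif4e in the third in 7 (adjusted p = 0.0518 to 0.12).

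With the replicate block in the fit of all 9 libraries, higher and lower calls numbered 11 and 3, 24 and 11, and 18 and 9 in the 3 comparisons, and Eif4ebp1 in the first turned to 0.0057. Over all tested genes they numbered 2348 and 2456, 4943 and 3893, and 3725 and 2851. With the block in a fit of 2 populations the initiation factor genes gave 9 and 3, 21 and 11, and 18 and 12, with Eif4ebp1 in the first at 0.030 and Eif4a2 in the second at -0.018. All tested genes gave 2038 and 2052, 4118 and 3498, and 4149 and 3949 there. In the third, the deviations of all same-numbered libraries correlated positively. There the block in the fit of 9 ended the call of Eif4e (adjusted p = 0.0529) and added that of Eif4ebp3 (-0.89, adjusted p = 0.0302). The blocked fit of 2 populations there ended the call of Rps6kb2 (adjusted p = 0.0566) and added those of Eif4e3, Eif4ebp3, Eif4g2, Abce1 (0.50, adjusted p = 0.00571) and Spn. The same fit without the block numbered 17 and 10 there, ended the call of Rps6kb2 (adjusted p = 0.0602) and added those of Eif4e3, Eif4ebp3 and Abce1 (adjusted p = 0.0447), but ended that of Eif4b (adjusted p = 0.0916). In the first and second the correlations of same-numbered deviations were 0.45, -0.62 and 0.38, and 0.26, -0.32 and 0.25. In none of the 3 comparisons did every library correlate best with its own number.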

Other observations

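Of 9 genes for elongation and termination, 3 were higher and 2 lower in CD43++ckit+ cells than in CD43+ckit- cells, 6 were higher and 1 lower than in CD43-ckit- cells, and 5 were higher and 1 lower in CD43+ckit- cells than in CD43-ckit- cells. Over all tested genes these shares were 19.7% and 20.1%, 39.7% and 27.7%, and 31% and 20.9%. Gspt1, for the release factor eRF3, was higher in CD43++ckit+ cells by 1.20 than in CD43+ckit- cells (edgeR adjusted p = 0.00065) and by 1.42 than in CD43-ckit- cells (adjusted p = 7.82e-05). Etf1, for its partner eRF1, was higher by 0.84 and 0.59 (adjusted p = 0.00432 and 0.0124), the second of which was 0.35 with DESeq2 size factors (adjusted p = 0.0777). Eef1e1, for a partner of the tRNA synthetase complex, was higher in CD43++ckit+ cells than in CD43-ckit- cells by 2.18 (adjusted p = 3.41e-05). Eef2k, for the kinase that inhibits eEF2, was highest in CD43+ckit- cells, with -0.63 for CD43++ckit+ cells against CD43+ckit- cells (adjusted p = 0.0139) and 1.00 for CD43+ckit- cells against CD43-ckit- cells (adjusted p = 0.0013).

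The 8 B lineage markers summed to 3.47 to 25.5 CPM in CD43++ckit+ cells, 15.4 to 46.6 CPM in CD43+ckit- cells and 89.99 to 234 CPM in CD43-ckit- cells. The 8 T and NK cell markers summed to 5.01 to 24.5 CPM, 29.4 to 34.3 CPM and 32.4 to 47.5 CPM in the same populations, and the 8 monocyte and macrophage markers to 17.8 to 174.7 CPM, 27.6 to 93.5 CPM and 215 to 393 CPM. The sum of the 6 mast cell and basophil markers was highest in CD43++ckit+ cells, with 546 to 1075 CPM there, 139.7 to 206 CPM in CD43+ckit- cells and 129 to 264 CPM in CD43-ckit- cells. Single markers did not all follow this sum. In CD43++ckit+ cells 5 of the 6 were called higher than in CD43+ckit- cells (19.7% of all tested genes). Against CD43-ckit- cells 3 were (39.7%), and 4 of the 6 fold changes were positive. CD43+ckit- cells had a median log2 fold change of -1.48 against CD43-ckit- cells, with 1 called lower (20.9%) and none higher.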
